A study of Mus musculus with 4 samples.

Results

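The genes described here encode the heterogeneous nuclear ribonucleoproteins (hnRNPs) and the serine/arginine-rich (SR) splicing factors, taken as every gene of the deposited table whose name starts with Hnrnp, or with Srsf and a digit. The rule found 31 of 17391 genes, of which 20 are hnRNP genes and 11 are SR genes. Both kinds of protein coat new transcripts in the nucleus. SR proteins bind exonic enhancers through an RNA recognition domain and recruit the splicing machinery through a domain rich in arginine and serine, and many hnRNPs bind silencers and hold exons out of the message, so that the balance between them sets which exons are kept. Members of both families also act in mRNA export, stability and translation.

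The study grew Gli1-positive cells from the kidneys of male mice aged 12 weeks as primary cultures and counted their transcripts by Drop-seq, a droplet method that tags the RNA of each cell with the barcode of a bead. All cultures spent 2 h without serum. Some then got TGF-β at 1 ng/ml, which turns fibroblasts into contractile myofibroblasts, and were collected after 6, 12 or 24 h. The control, labelled 0 h, got no TGF-β and was collected when the serum-free period ended. Each time point had 1 library, so no comparison below has a replicate check or a test, and TGF-β, time in culture and library cannot be told apart. Where values are summed over a library, fewer cells that express a gene and less of its RNA per cell cannot be told apart. Levels are counts per 1000000 counts of a library (CPM), and ranges in parentheses are exact 95% intervals that cover counting error only. Drop-seq captures transcripts at their poly(A) ends, so CPM was not divided by transcript length, and an order of genes by CPM is an order of counted transcript ends.

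The libraries differed in depth and content. They held 106826, 778793, 5687966 and 6166324 counts in time order, and no barcode was shared between libraries. The content of the library labelled 0 h did not match that label: its 12 proximal tubule markers summed to 17861 CPM, against 4.395 to 5.84 CPM in the treated libraries, and its mesenchymal markers to 56.2 CPM, against 7078 to 13673 CPM, with 6 of 10 at 0 counts, Col1a1, Fn1 and Sparc among them. The nuclear RNA Malat1 made up 32.2% of all its counts, against 0.947% to 1.24% in the treated libraries, and ribosomal protein genes 0.354%, against 11% to 15.5%. Gli1 itself was not analysed here, and Dcn, a fibroblast marker, had 0 to 4 counts in each treated library. The loop, distal and collecting duct, endothelial, macrophage and podocyte lists summed to 0.352 to 12.8 CPM in the treated libraries. Values of the library labelled 0 h are therefore given as a description of that library, and the part of its tubule content, Malat1 share and ribosomal share in any difference was not tested.

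Promoters of 3 members are shown because the results turn on these genes: Hnrnpa2b1 and Srsf11 were the most counted member of each family in the treated libraries, and Hnrnpa1 differed most between 12 and 24 h. Each is the 250 bases before the start site listed in RefSeq on GRCm38.p6, read on the gene's own strand. The windows are chr6:51469895-51470144 on the minus strand, chr3:158036607-158036856 on the minus strand and chr15:103240147-103240396 on the plus strand. Capitals mark matches, on either strand, to the CCAAT box (CCAAT), the GC box (GGGCGG), the ETS core (CCGGAAG) or the TATA box (TATAAA), and no match overlaps another.
Hnrnpa2b1: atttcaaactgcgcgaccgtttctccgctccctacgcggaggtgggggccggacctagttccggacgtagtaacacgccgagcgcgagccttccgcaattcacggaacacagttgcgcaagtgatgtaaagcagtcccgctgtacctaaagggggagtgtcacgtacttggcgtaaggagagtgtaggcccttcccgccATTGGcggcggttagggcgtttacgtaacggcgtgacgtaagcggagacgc
Srsf11: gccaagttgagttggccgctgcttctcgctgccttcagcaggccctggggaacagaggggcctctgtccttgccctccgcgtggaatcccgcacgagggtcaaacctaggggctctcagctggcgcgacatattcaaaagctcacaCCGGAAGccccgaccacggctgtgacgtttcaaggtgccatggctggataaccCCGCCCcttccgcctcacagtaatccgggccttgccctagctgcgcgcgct
Hnrnpa1: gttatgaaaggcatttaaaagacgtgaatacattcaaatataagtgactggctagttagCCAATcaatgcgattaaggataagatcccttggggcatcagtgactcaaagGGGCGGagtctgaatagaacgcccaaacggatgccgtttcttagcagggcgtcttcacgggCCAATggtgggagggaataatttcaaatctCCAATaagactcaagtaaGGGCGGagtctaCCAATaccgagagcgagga

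Hnrnpa1 held 4 CCAAT boxes and 2 GC boxes. Of 11847 promoters of genes in the table, 1.401% held as many CCAAT boxes and 30.3% as many GC boxes. Hnrnpa2b1 held 1 CCAAT box, as 36.1% of promoters did, and Srsf11 held 1 GC box, as 55.1% did, and 1 ETS core, as 12.1% did. RefSeq promoters were matched for 29 of the 31 members, all but Hnrnpll and Hnrnpul2. A CCAAT box was present in 12 of 18 hnRNP promoters and 3 of 11 SR promoters, against 36.1% of all promoters. A GC box was present in 13 of 18 and 10 of 11, against 55.1% of all, and an ETS core in 2 of 18 and 4 of 11, against 12.1% of all. A TATA box was present in 1 of 18 and 2 of 11, against 7.13%. These matches describe letters and are not binding sites.

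In the treated cultures hnRNP transcripts outnumbered SR transcripts by several fold, and a few genes made up most of each family. The 20 hnRNP genes summed to 2743 CPM (2438 to 3076) in the library labelled 0 h. At 6 h their sum was 6556 CPM (6378 to 6739), at 12 h 6776 CPM (6708 to 6844), and by 24 h 5003 CPM (4948 to 5060). The 11 SR genes summed to 4072 CPM (3698 to 4473), 1718 CPM (1627 to 1813), 1895 CPM (1860 to 1932) and 1626 CPM (1595 to 1658) in the same order. The hnRNP sum was thus highest at 6 and 12 h and lowest in the library labelled 0 h, while the SR sum was highest in the library labelled 0 h.

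**Figure D1:**
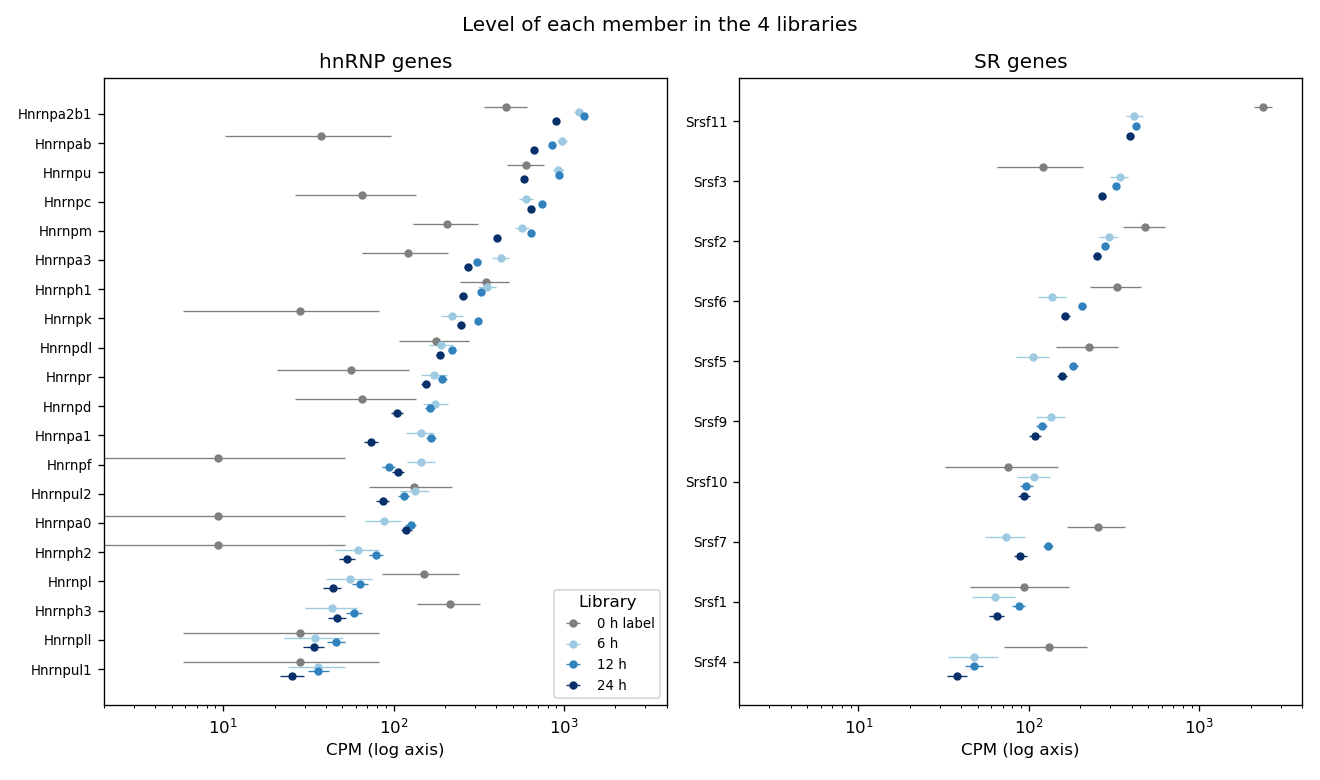
Level of each hnRNP gene (left) and SR gene (right) in the 4 libraries, in CPM on a log axis; points are 1 library each, bars are exact 95% Poisson intervals, and genes are ordered by their mean over the treated libraries. The grey points of the library labelled 0 h lie left of the blue ones for most hnRNP genes and right of them for most SR genes; Srsf12 is left out, and points at 0 counts (Hnrnpa1 and Srsf9 in the library labelled 0 h) are not drawn.

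The hnRNPs of the A/B type include the abundant core proteins that package new transcripts. Hnrnpa2b1, which binds pre-mRNA and sorts RNAs for transport, had 459, 1215, 1305 and 902 CPM at 0, 6, 12 and 24 h, and made up 16.7%, 18.5%, 19.3% and 18.0% of the hnRNP counts. It ranked first in the family in each treated library. Hnrnpab, of the same type, had 37.4, 971, 846 and 666 CPM. The treated libraries thus held many times the Hnrnpab level of the library labelled 0 h, where it had 4 counts; at 24 h the ratio was 17.8 (6.94 to 65.3).

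Hnrnpa1, a well-studied repressor of exon inclusion and an opponent of SR proteins, had 0, 112, 944 and 453 counts, or 0, 144, 166 and 73.5 CPM. The count of 0 allows up to 28.1 CPM (3 counts) in the library labelled 0 h, so the treated libraries were higher by at least 5.12-fold, 5.91-fold and 2.62-fold in time order. Among the treated libraries 24 h stood well below the others. Hnrnpa3, a close relative, had 122, 424, 310 and 271 CPM, and Hnrnpa0, an mRNA-binding member without introns in its coding part, had 9.36, 87.3, 126 and 119 CPM. Hnrnpa3 was highest at 6 h and Hnrnpa0 at 12 h.

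Hnrnpd, which binds AU-rich elements and speeds mRNA decay, had 65.5, 176, 164 and 104 CPM, and its relative Hnrnpdl had 178, 190, 220 and 187 CPM. The genes lie 54.6 kb apart on chromosome 5, and among the treated libraries Hnrnpd was lowest at 24 h while Hnrnpdl varied little in the summed counts. Across the settings tried, the log2 ratio of Hnrnpdl at 12 h against 6 h ran from 0.037 to 0.68. The summed levels of Hnrnpd and Hnrnpdl stayed far under those of Hnrnpa2b1.

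Hnrnpc, which binds uridine-rich stretches of pre-mRNA, had 65.5, 600, 745 and 642 CPM. Hnrnpu, a nuclear scaffold protein that binds chromatin and RNA, had 599, 926, 930 and 582 CPM. It ranked 4 among hnRNP genes at 24 h, with 11.6% of their counts, and first in the library labelled 0 h, with 21.8% (17.2 to 27.0). Hnrnpm, a splicing regulator that acts on exons changed in epithelial to mesenchymal transition, had 206, 566, 641 and 405 CPM. Hnrnpc and Hnrnpm were highest at 12 h, and Hnrnpu was level between 6 and 12 h and lowest at 24 h.

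Hnrnpk, which binds cytosine-rich RNA and DNA through KH domains, had 28.1, 221, 313 and 248 CPM, and Hnrnpr 56.2, 173, 193 and 154 CPM. Hnrnph1 and Hnrnpf bind runs of guanines. Hnrnph1 had 346, 354, 326 and 255 CPM, lowest at 24 h, whereas Hnrnpf had 9.36, 145, 93.4 and 106 CPM. Hnrnpul2, related to Hnrnpu, had 131, 134, 114 and 86.3 CPM.

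The remaining hnRNP genes, Hnrnph2, Hnrnph3, Hnrnpl, Hnrnpll and Hnrnpul1, averaged 32.5 to 64.6 CPM over the treated libraries. Hnrnph3 and Hnrnpl were the hnRNP genes highest in the library labelled 0 h. Hnrnph3 had 46.5 CPM at 24 h, against 215 CPM in the library labelled 0 h, and Hnrnpl, which binds CA repeats, had 43.8 CPM, against 150 CPM.

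Among SR genes Srsf11, a less canonical member that acts with splice-site factors, was the most counted in every library. It had 2368 CPM (2085 to 2679), 416 CPM (372 to 464), 423 CPM (406 to 440) and 390 CPM (374 to 406) at 0, 6, 12 and 24 h. Its level differed little across the treated libraries, except with equal barcode weights, where its log2 ratio was 0.65 at 12 h against 6 h and -0.41 at 24 h against 12 h. At 24 h it was 6.08-fold (5.32 to 6.92) lower than in the library labelled 0 h, where its 253 counts lay in 136 of 192 barcodes with at most 9 in 1 barcode. Srsf11 made up 58.2%, 24.2%, 22.3% and 24.0% of the SR counts.

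Srsf3, the smallest SR protein and an adaptor for mRNA export, had 122, 340, 324 and 270 CPM, and Srsf2, which binds exonic enhancers and stays in the nucleus, had 477, 294, 281 and 251 CPM. Both ranked next after Srsf11 in each treated library and were lowest there at 24 h. Against the library labelled 0 h they differed in direction: at 24 h Srsf3 was higher at a ratio of 2.22 (1.29 to 4.17) and Srsf2 was 1.90-fold (1.41 to 2.51) lower.

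Srsf6 had 328, 137, 205 and 164 CPM and Srsf5 had 225, 105, 182 and 157 CPM; both activate exons through enhancers. Srsf7, an export adaptor like Srsf3, had 253, 73.2, 130 and 89.0 CPM. It was named after its values were seen, and its mean over the treated libraries, 97.3 CPM, lay under the 100 CPM for full values. All 3 genes were highest in the library labelled 0 h, lowest at 6 h and, among treated libraries, highest at 12 h, and Srsf1 and Hnrnph3 had the same order. Counting error leaves part of this order unsettled. At 12 h against the library labelled 0 h, Srsf5 was at a ratio of 0.811 (0.542 to 1.27). Srsf1, with 10 counts in the library labelled 0 h, was at 0.933 (0.503 to 1.96). Srsf9, related to Srsf1, had 0, 135, 119 and 109 CPM, and was higher than in the library labelled 0 h by at least 3.87-fold at 24 h.

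Srsf1, the prototype of the family, Srsf4 and Srsf10, which represses splicing when dephosphorylated, averaged 71.6, 44.4 and 99.1 CPM over the treated libraries. Srsf12 had 0, 0, 2 and 4 counts and was not measurable at these depths.

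The balance of the families does not depend on how libraries are scaled. SR genes made up 59.8% (56.1 to 63.3) of the SR and hnRNP counts in the library labelled 0 h, 20.8% (19.8 to 21.8) at 6 h, 21.9% (21.5 to 22.2) at 12 h and 24.5% (24.1 to 24.9) at 24 h. The ratio of SR to hnRNP counts at 12 h was 1.07 times (1.00 to 1.14) that of 6 h. The same ratio was 1.16 times (1.13 to 1.20) that of 12 h at 24 h, and 1.24 times (1.16 to 1.32) that of 6 h. SR genes thus held a slightly larger share at 24 h than at either earlier treated time, the step between 6 and 12 h lay at the edge of counting error, and SR genes held most of the pool in the library labelled 0 h. Without Srsf11 the shares were 38.3% (33.9 to 42.9), 16.6%, 17.9% and 19.8%.

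**Figure D2:**
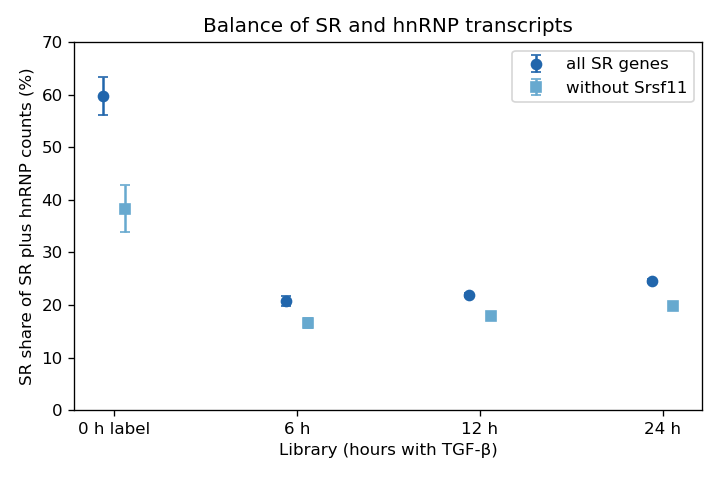
Share of SR counts among SR plus hnRNP counts in each library, with all SR genes (circles) and without Srsf11 (squares), in percent; bars are exact 95% binomial intervals of 1 library each. The library labelled 0 h stands at 59.8%, or 38.3% without Srsf11, and the treated libraries lie between 20.8% and 24.5%, or between 16.6% and 19.8%.

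The share depended on the depth of barcodes at 6 and 24 h. In barcodes with 1000 or more counts it was 21.6% (20.5 to 22.8) at 6 h, 21.8% (21.5 to 22.2) at 12 h and 24.6% (24.2 to 25.04) at 24 h. In barcodes with fewer it was 18.0% (16.1 to 20.04), 23.3% (20.9 to 25.9) and 20.7% (18.1 to 23.4). The higher share at 24 h than at 12 h was therefore seen in the deeper barcodes, which held nearly all counts of both libraries, and not in the shallow ones. In the library labelled 0 h the share was 57.5% (47.6 to 67.1) in its 13 deeper barcodes and 60.1% (56.2 to 64.0) in the other 179.

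The library labelled 0 h differed from the treated ones family by family. Its level was the highest of the 4 libraries for 7 of 10 measured SR genes and for 2 of 20 measured hnRNP genes, where 34% of 6910 measured genes had their highest level there (measured: mean of 20 CPM or more). It was the lowest of the 4 for 14 of 20 hnRNP genes and 3 of 10 SR genes, as for 3930 of all 6910. Among the SR genes highest there, Srsf1 and Srsf5 were within counting error of their 12 h level. Other splicing lists varied in the same comparison. SR-related proteins such as Srrm2 and Son, which carry similar domains, summed to 3353, 3275 and 2903 CPM at 6, 12 and 24 h, against 10737 CPM in the library labelled 0 h, where 9 of 9 had their highest level. The nuclear importins Tnpo1 and Tnpo3 and the kinases that phosphorylate SR proteins summed to 589, 669 and 628 CPM, against 1554 CPM. Of 8 measured genes in this list, 6 were highest in the library labelled 0 h. Other RNA-binding regulators summed to 6086, 6487 and 5608 CPM, against 8013 CPM, with 10 of 29 highest there. Core proteins of the spliceosomal snRNPs went the other way, at 2784, 2493 and 2442 CPM, against 824 CPM, with 1 of 16 highest there. U2 and branch point factors did too, at 1346, 1452 and 1186 CPM, against 833 CPM, with 1 of 9.

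**Figure D3:**
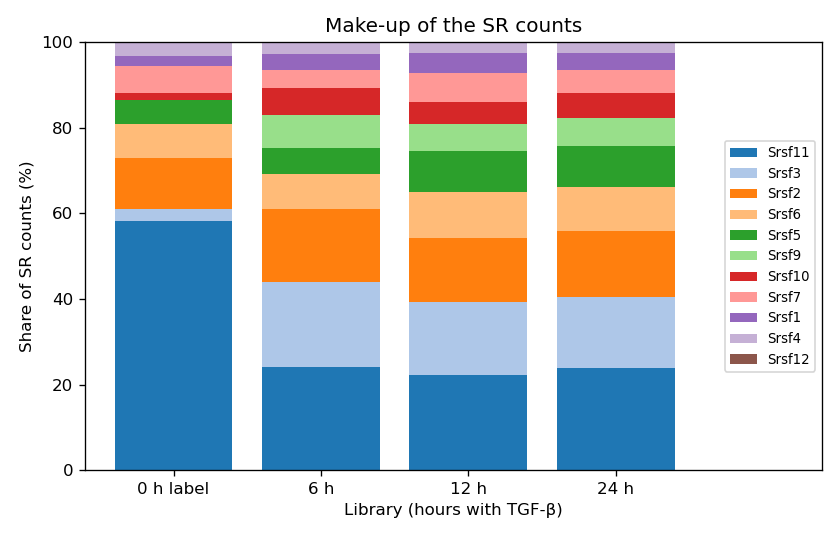
Make-up of the SR counts in each library: stacked bars give each gene's share of all SR counts in percent, 1 library a bar, in the order of the mean level over the treated libraries from the bottom. Srsf11 takes 58.2% in the library labelled 0 h and 22.3% to 24.2% in the treated ones, where Srsf3 and Srsf2 come next.

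Between 6 and 12 h 3 members passed the limit set for a difference, and which ones did depended on how barcodes were weighted. A gene was counted as different at 1.5-fold or more on log2(CPM + 10) among genes with a mean of 20 CPM or more in the 2 libraries compared. At 12 h against 6 h, 0 of 20 hnRNP genes were higher and 1 was lower, and 2 of 10 SR genes were higher and 0 lower. Of all 6355 genes measured, 16.9% were higher and 7.27% lower, so a count of 2 of 10 SR genes is near the background share. With equal barcode weights 6 of 10 SR genes were called higher and the SR median log2 ratio was 0.66, against 0.21 over all genes. The share of all genes called with equal weights is not given, so this count has no background beside it. At 2-fold or more no member was called, against 4.79% higher and 4.34% lower of all genes with 100 CPM or more in at least 1 of the 2 libraries. The median log2 ratio was 0.16 over hnRNP genes and 0.02 over SR genes, against 0.15 over all genes.

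The SR genes called were Srsf7, 1.77-fold (1.35 to 2.36) higher, and Srsf5, 1.73-fold (1.38 to 2.20) higher at 12 h than at 6 h. Srsf6 was at a ratio of 1.49 (1.22 to 1.83), just under the limit. In barcodes with 1000 or more counts at 12 h against 6 h, Srsf7 was at a log2 ratio of 0.53, under the limit, and Srsf5 at 0.67. The Srsf5 call ended with DESeq2 size factors, at 0.576, and both calls ended with a pseudocount of 50 CPM, at 0.581 for Srsf5 and 0.54 for Srsf7. The hnRNP gene called was Hnrnpf, at 12 h 1.55-fold (1.26 to 1.91) below 6 h. Its log2 ratio of -0.59 lay at the limit, and was -0.048 in deeper barcodes without a cell cycle count. Hnrnpk was at a ratio of 1.42 (1.21 to 1.66), Hnrnpa0 at 1.44 (1.12 to 1.88) and Hnrnpc at 1.24 (1.13 to 1.37), while Hnrnpa3 was at 0.731 (0.649 to 0.824). With 57 to 113 counts behind Srsf5, Srsf7 and Hnrnpf at 6 h, these ratios are loose. Cell cycle genes differed at this step too, with 24 of 25 measured G2 and M phase genes and 8 of 12 S phase genes at least 1.5-fold lower at 12 h than at 6 h. In deeper barcodes without a cell cycle count Srsf5 was at a log2 ratio of 1.03 and Srsf7 at 0.54. At 6 h that class held 23 barcodes and 181931 counts, so its values for Srsf5, Srsf7 and Hnrnpf are loose.

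From 12 to 24 h hnRNP transcripts were lower, and SR transcripts less so. At 24 h the hnRNP sum was 1.35-fold (1.33 to 1.37) below that of 12 h, and the SR sum 1.17-fold (1.13 to 1.20) below. On the scale of library totals 19 of 20 hnRNP genes and 10 of 10 SR genes had a log2 ratio below 0, against 67.7% of 6469 measured genes. The median log2 ratio was -0.35 over hnRNP genes and -0.23 over SR genes, against -0.11 over all genes. With TMM scaling, which moves the median of all genes to -0.0046, 18 of 20 hnRNP genes and 8 of 10 SR genes were below 0, against 50.9% of genes.

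The genes at least 1.5-fold lower at 24 h than at 12 h were 4 of 20 hnRNP genes and 0 of 10 SR genes, and no member was higher, where 3.4% of all genes were lower and 2.38% higher. They were Hnrnpa1, Hnrnpu, Hnrnpm and Hnrnpd. With TMM scaling or DESeq2 size factors Hnrnpa1 alone stayed past the limit. Other settings ended calls too. Hnrnpu was at a log2 ratio of -0.53 in deeper barcodes without a cell cycle count, and Hnrnpm at -0.51 with equal barcode weights. Hnrnpd was at -0.57 without doublets, -0.55 without mitochondrial and ribosomal protein genes in the totals, and -0.47 with a pseudocount of 50 CPM. The ratio for Hnrnpu was 1.60-fold (1.53 to 1.67) lower, for Hnrnpm 1.58-fold (1.51 to 1.67) and for Hnrnpd 1.57-fold (1.42 to 1.74). Hnrnpa2b1 came close to the limit at 1.45-fold (1.398 to 1.499) lower, as did Srsf7 at 1.46-fold (1.30 to 1.63).

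At 24 h Hnrnpa1 was 2.26-fold (2.02 to 2.53) lower than at 12 h, with 453 counts in 319 barcodes at 24 h, against 944 counts in 470 barcodes at 12 h. It was the only member at least 2-fold apart among treated libraries, where 0.699% of 2146 genes past the 100 CPM floor were that much lower and 1.35% that much higher. With TMM, DESeq2 or a pseudocount of 50 CPM it stayed past 1.5-fold but not 2-fold. It ranked 39 from the lowest of 6469 measured genes by log2 ratio. Its share of hnRNP counts, which does not depend on scaling, was 1.47% (1.34 to 1.61) at 24 h, against 2.45% (2.30 to 2.61) at 12 h. The highest single barcode held 7 of its counts at 24 h, against 14 at 12 h, so no single barcode held the difference.

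**Figure D4:**
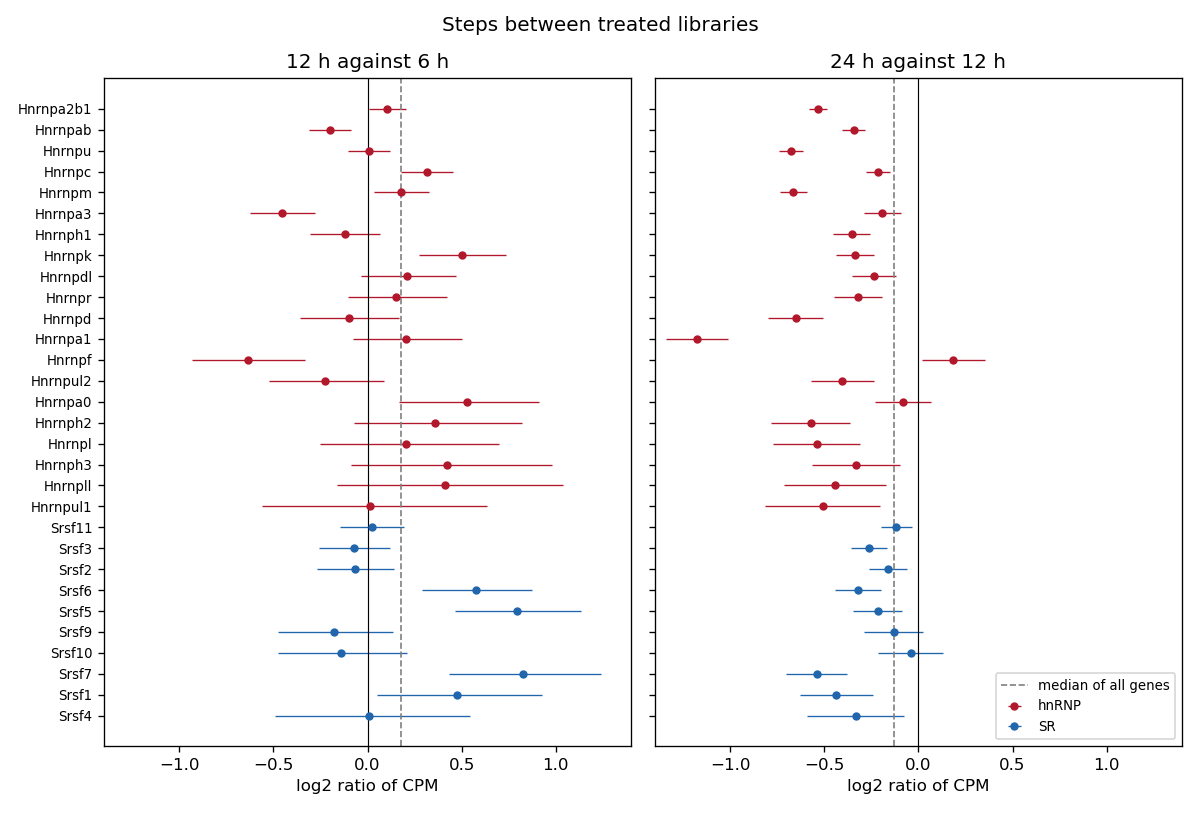
Log2 ratio of CPM, without a pseudocount, for each hnRNP gene (red) and SR gene (blue) at 12 h against 6 h (left) and at 24 h against 12 h (right); bars are exact conditional 95% intervals of 1 library against 1, the solid line is 0 and the dashed line the median of all genes with a mean of 20 CPM or more. On the left Srsf7, Srsf5 and Srsf6 stand to the right and Hnrnpf to the left. On the right most red points lie left of the dashed line, Hnrnpa1 farthest, and Hnrnpf lies right of 0.

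Hnrnpf and Hnrnpa0 did not follow the family. Hnrnpf had 106 CPM at 24 h, against 93.4 CPM at 12 h, a ratio of 1.14 (1.01 to 1.28), and was the only hnRNP gene above 0 there. Hnrnpa0 was at a ratio of 0.944 (0.851 to 1.05). Within the SR family, where Srsf10 is named after its values were seen, Srsf10 at 0.971 (0.863 to 1.09), Srsf11 at 0.922 (0.871 to 0.976) and Srsf9 at 0.913 (0.819 to 1.02) were closest to level.

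Cell cycle genes moved with this step. The G2 and M phase list summed to 295 CPM at 24 h, against 1101 CPM at 12 h, and the S phase list to 407 CPM, against 537 CPM, with 13 of 16 and 2 of 7 measured members at least 1.5-fold lower. Mki67, a marker of cycling cells, had 7.62 CPM at 24 h, against 58.4 CPM at 12 h. In deeper barcodes without a cell cycle count, as judged after thinning to 1000 counts, the hnRNP sum was at a log2 ratio of -0.38, against -0.44 over all barcodes, and Hnrnpa1 at -1.10, against -1.08. Ribosomal protein genes took 15.3% of counts at 24 h, against 11% at 12 h, and with them and mitochondrial genes left out of the totals the hnRNP sum was at -0.37. The hnRNP difference was thus somewhat smaller in both settings. Leaving genes out of the totals moves all genes nearly alike, and the median of all genes went from -0.11 to -0.057. Hnrnpa1 was at -1.03 in that setting, and its difference was not smaller in the first. A cell cycle count can be missing by sampling, so the first setting does not leave out all cycling cells.

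Over the whole treated course, 15 of 20 hnRNP genes and 6 of 10 SR genes had their lowest treated level at 24 h, against 35.1% of 6382 genes. The highest treated level was at 12 h for 14 hnRNP and 6 SR genes, against 47.5% of genes, and at 6 h for 6 hnRNP and 4 SR genes, against 30.4%. These tallies depended on scaling. With TMM the highest level was at 12 h for 10 hnRNP and 4 SR genes, against 31.5% of genes, and with DESeq2 size factors for 9 and 4, against 28.9%. The lowest level stayed at 24 h for 15 hnRNP genes with TMM and with DESeq2, and for 4 and 5 SR genes, against 28.6% and 29.9% of genes. At 24 h against 6 h, 4 of 20 hnRNP genes were at least 1.5-fold lower and none higher, and no SR gene was called, where 8.95% of 6238 genes were lower and 13.5% higher. The genes were Hnrnpa1, 1.96-fold (1.58 to 2.41) lower, Hnrnpd at 1.68-fold (1.39 to 2.03), Hnrnpu at 1.59-fold (1.47 to 1.72) and Hnrnpa3 at 1.56-fold (1.38 to 1.76). Of these calls Hnrnpa1 alone stayed past 1.5-fold in every setting tried. In deeper barcodes without a cell cycle count Hnrnpa3 was at -0.22 and Hnrnpu at -0.48, and with equal barcode weights Hnrnpd was at -0.32 and Hnrnpu at -0.56. The class without a cell cycle count held 23 barcodes at 6 h, so its values for single genes are loose. At 2-fold no member was called at 24 h against 6 h, where 4.06% of genes were lower and 4.99% higher. The hnRNP sum was 1.31-fold (1.27 to 1.35) lower, and the SR sum was at a ratio of 0.947 (0.894 to 1.00). Cell cycle genes moved with this comparison, with 25 of 25 measured G2 and M phase genes and 9 of 12 S phase genes at least 1.5-fold lower at 24 h. In deeper barcodes without a cell cycle count the hnRNP sum was at a log2 ratio of -0.23, against -0.39 over all barcodes. The SR sum was at 0.083 there, against -0.079 over all barcodes and -0.17 over all deeper barcodes. Over all deeper barcodes the hnRNP sum was 5007 CPM at 24 h, against 6677 CPM at 6 h.

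Other splicing genes are given here by list. Of 28 measured RNA-binding regulators outside the families, 2 were at least 1.5-fold lower at 24 h than at 12 h and none higher, where 3.4% of all genes were lower and 2.38% higher, with a median log2 ratio of -0.32, close to that of the hnRNP genes. One of them was Ptbp1, a pyrimidine-tract binding repressor, with 22.7 CPM at 24 h, against 43.8 CPM at 12 h. At 12 h against 6 h 3 of 28 were higher and none lower, a share below the 16.9% of all genes that were higher: Celf2 at 2.35-fold (1.70 to 3.33), Tia1, which binds uridine-rich sequence at 5′ splice sites, at 2.01-fold (1.60 to 2.54), and Ptbp1 at 2.27-fold (1.35 to 4.12). Celf2, an RNA-binding regulator of muscle and heart splicing, had 156 CPM at 24 h, against 50.1 CPM at 6 h. Sfpq, of the same list, had 164 CPM at 24 h, against 329 CPM at 6 h. In that comparison 2 of 28 were higher and 2 lower, where 13.5% of all genes were higher and 8.95% lower.

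The same shares of all genes stand beside the counts of the remaining lists. Among 16 core snRNP genes 1 was higher and none lower at 24 h than at 12 h, with a median of -0.10. It was Snrpg, of the Sm ring, with 333, 128 and 275 CPM at 6, 12 and 24 h. Among 9 measured U2 and branch point factors, U2af1, which reads the 3′ splice site, was lower at 24 h, at 32.6 CPM, against 54.9 CPM at 12 h, and the median was -0.19. None of 8 measured SR kinases and importins and none of 9 SR-related genes was called at 24 h against 12 h, with medians of -0.09 and -0.20. At 12 h against 6 h, 2 of 8 kinases and importins, Srpk2 and Clk3, were higher, at 1.65-fold (1.26 to 2.19) and 1.82-fold (1.11 to 3.18), and 1 of 9 SR-related genes, Prpf4b, a kinase of the spliceosome, was 1.69-fold (1.46 to 1.95) lower.

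How reads were assigned limits some members. In GENCODE M21 on mm10, Hnrnpa1 (chromosome 15, 103240432 to 103246692, plus strand) shares runs of 51 bases in the last 600 bases of its transcripts with 12 other genes, of which Gm7729 alone is in the table, at no more than 2.11 CPM. Hnrnpa3 shares such sequence with 40 genes, of which 4 are in the table at no more than 0.352 CPM each. Reads from such copies cannot be told apart, so the levels of Hnrnpa1 and Hnrnpa3 are uncertain. Srsf5 shares such sequence with Top1, at 403 CPM at 12 h, against 422 CPM at 6 h, and its level is uncertain too. The same holds for Hnrnpul1, at 25.5 to 36.2 CPM in the treated libraries. It shares such sequence with 14 genes in the table, among them Wdr26, at 227 to 393 CPM in those libraries. In all 8 of 31 members share such sequence with a gene in the table, and 10 overlap one, among them Hnrnpu (chromosome 1, 178321108 to 178337797) with Cox20 on the other strand and Hnrnpm (chromosome 17, 33646233 to 33686860) with March2 on the same strand. No source used here states whether strand was used in counting. Cox20 had 113 CPM at 24 h, against 116 CPM at 12 h, and March2 51.7 CPM, against 47.6 CPM.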

How the data were processed

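The submitters' processing notes name STAR 2.5.3a and the build mm10. The authors' deposited values are raw counts, whole numbers for each gene in each barcode, as the file itself shows. Counter, annotation, barcode filter, strand and UMI collapsing are not given in any source here. Column names gave each barcode's library.

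All 3298 barcodes were kept and their counts summed per library, doublets included. Depth ran from 106826 to 6166324 counts. CPM, exact Poisson and binomial intervals, and log2 ratios with a pseudocount of 10 CPM were computed from the sums, with no test, since each time point had 1 library. The calling floor was a mean of 20 CPM for 1.5-fold, or 100 CPM in either library for 2-fold. Members averaging 100 CPM over the treated libraries are given in full. Members and lists were chosen with earlier results of these data known. Scrublet (scanpy 1.11.5) called doublets. Alternatives were scaling by TMM (edgeR 4.0.16) or DESeq2 1.42.0 size factors on the treated libraries, subsets and weights of barcodes, pseudocounts and floors. Positions come from GENCODE M21 and promoters from RefSeq on GRCm38.p6. Python 3.11.15 and R 4.3.3 were used. Values of some single genes outside the families are not reported here.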

Additional observations from a re-analysis of the deposited data

How the results depend on the processing

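No paired analysis was possible because each time point had 1 library. Over all settings and summary results, 339 values stayed within the counting interval or within 1.5 times a count, and 69 moved as follows. Of the values of single members, 882 stayed and 108 moved, and no called one changed sign. With 106826 counts at 0 h and 778793 at 6 h, depth limits the ratios with those libraries most. The tallies of highest and lowest treated levels under TMM and DESeq2 were added after seeing the data. Why values moved was not tested.

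The log2 ratio of the hnRNP sum at 12 h against 6 h, 0.047, was -0.072 with TMM, -0.13 with DESeq2 size factors, -0.049 without mitochondrial and ribosomal protein genes in the totals, 0.14 with equal barcode weights, 0.14 in deeper barcodes without cell cycle counts and 0.13 without the highest barcode of each gene, so its sign depended on scaling. The SR sum, 0.14, was 0.022, -0.031, 0.045, 0.42, 0.25 and 0.23 in the same settings, 0.038 in barcodes with 1000 or more counts and 0.051 in those with 500 or more genes. At 24 h against 12 h the hnRNP sum, -0.44, was -0.31 with TMM, -0.31 with DESeq2, -0.37 without those genes in the totals, -0.46 with equal weights and -0.38 without cell cycle counts. The SR sum, -0.22, was -0.097, -0.090, -0.16, -0.34 and -0.16. At 24 h against 6 h the hnRNP sum, -0.39, was -0.32 with equal weights, -0.23 without cell cycle counts and -0.30 without the highest barcodes. The SR sum, -0.079, was 0.084, 0.083 and 0.012 in these and -0.17 in barcodes with 1000 or more counts. The SR median at equal weights was 0.66 at 12 h against 6 h and 0.25 at 24 h against 6 h, and 0.35 at 12 h against 6 h without cell cycle counts. Medians over all genes in the same order were 0.21, 0.085 and 0.085. The SR share at equal weights was 18.8% at 6 h and 23.5% at 24 h.

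At 24 h against 12 h, hnRNP genes called lower numbered 1 with TMM and 1 with DESeq2, in place of 4. Members at least 2-fold lower numbered 0 with TMM, DESeq2 or a pseudocount of 50 CPM, in place of 1, and SR genes called lower numbered 1 at equal weights. At 12 h against 6 h, hnRNP genes called higher, in place of 0, numbered 1 in barcodes with 1000 or more counts, 1 with 500 or more genes and 1 without the highest barcodes, 2 at equal weights and 3 without cell cycle counts. Those called lower, in place of 1, numbered 2 with DESeq2, 2 at equal weights, and 0 without doublets, cell cycle counts or the highest barcodes or with a pseudocount of 50 CPM. SR genes called higher, in place of 2, numbered 1 with DESeq2, with 1000 or more counts or with 500 or more genes, 6 at equal weights and 0 with a pseudocount of 50 CPM. Members at least 2-fold higher numbered 1 at equal weights and 1 without cell cycle counts. At 24 h against 6 h, SR genes called higher numbered 3 at equal weights, 1 without cell cycle counts and 1 without the highest barcodes; SR genes called lower numbered 1 and hnRNP genes called higher 1 at equal weights; hnRNP genes called lower numbered 2 with a pseudocount of 50 CPM, in place of 4; and members at least 2-fold lower numbered 1 at equal weights and 1 without cell cycle counts. The hnRNP genes highest in the library labelled 0 h numbered 5 without cell cycle counts, in place of 2. That library held 13 barcodes with 1000 or more counts, 6 of them with a cell cycle count, so the value is loose. Shares of all genes called under these alternatives are not given, so these counts have no background beside them.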

Other observations

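Among barcodes with 1000 or more counts, those with at least 1 cell cycle count after thinning to 1000 counts numbered 57 of 80 at 6 h, 448 of 865 at 12 h and 409 of 933 at 24 h. In them the hnRNP genes summed to 7086 CPM (6826 to 7353) at 6 h, against 5788 CPM (5444 to 6148) in barcodes without such a count. At 12 h the barcodes with a count held 7098 CPM (7003 to 7194), against 6391 CPM (6293 to 6489) for those without. The same sums at 24 h were 5104 CPM (5022 to 5188), against 4918 CPM (4841 to 4996). hnRNP transcripts were thus higher in the barcodes with cell cycle transcripts in each treated library, and the gap was narrowest at 24 h. The S phase list behind these classes summed to 407 CPM at 24 h, against 949 CPM at 6 h. The G2 and M phase list summed to 295 CPM, against 3422 CPM. The part of these lower levels in the narrower gap was not tested. At such levels a barcode can hold or lack 1 count in 1000 by sampling, so the classes do not separate cycling from other cells. The intervals cover counting error only, and cells of 1 library are not replicates.

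The SR genes followed the same order. At 6 h their sum was 1993 CPM (1856 to 2137) with such a count, against 1512 CPM (1338 to 1701) without. At 12 h it was 1973 CPM (1923 to 2024) with it, against 1794 CPM (1743 to 1847) without. At 24 h it was 1673 CPM (1626 to 1721) with it, against 1601 CPM (1557 to 1646) without. The SR share of both families' counts differed little between these barcodes, at 21.9% against 20.7% at 6 h, 21.7% against 21.9% at 12 h and 24.7% against 24.6% at 24 h. At 24 h Hnrnpa1 had 81.9 CPM (71.8 to 93.1) with such a count, against 65.8 CPM (57.2 to 75.4) without, and both kinds of barcode at 24 h lay below both kinds at 12 h, where the values were 178 CPM (163 to 194) and 153 CPM (138 to 169).

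In shallow barcodes of the 12 h library, those with fewer than 1000 counts, Srsf11 had 657 CPM and Malat1 took 2.55% of counts, against 418 CPM and 1.10% in the deeper ones. At 6 h shallow barcodes had 278 CPM of Srsf11 and 0.531% Malat1, against 464 CPM and 1.09%, and at 24 h 248 CPM and 1.33%, against 393 CPM and 1.23%.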
